A study of Homo sapiens with 3 samples.

Results

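NCI-N87 is an established human gastric cancer cell line that grows as an epithelium. In the libraries compared here, cells carrying the genotype label WT had received a scrambled siRNA, and cells labelled Knockdown had received siRNA2, an siRNA against the forkhead transcription factor FOXP4. Both were transfected with Lipofectamine 2000, so lipid transfection and a small double-stranded RNA are common to the control and the knockdown. Each group holds 1 library, and these make up 2 of the 3 libraries of the series; the remaining one, siRNA1, carries another siRNA against FOXP4 and is quoted only where its level is set beside the others. Without replicates there is no spread to set a difference against, so every value below is a description of 2 libraries, no test was made, and a difference between them has no replicate check. The labels do not say whether the libraries came from separate cultures, nor do they give the siRNA dose or the time after transfection.

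Levels are in TPM, which scales reads by transcript length and brings each library to the same total. A log2 fold is log2 of the ratio of TPM + 1 with siRNA2 to TPM + 1 with the scrambled siRNA, which understates the fold of genes with low values. Only genes averaging 5 TPM or more over both libraries were compared. This kept 10617 genes, of which 9671 are protein-coding in GENCODE 29, and left out 12123 that had reads at lower levels. RP11-1193F23.1, with a mean of 5.0011 TPM, was the gene just inside that limit, and PLCD1, with a mean of 4.9993 TPM, was the gene just outside it. Depth read from the steps of low values came to about 18400000 reads with the scrambled siRNA and 19100000 reads with siRNA2. A read on 2000 bases of exon was then worth 0.107 and 0.109 TPM.

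FOXP4 belongs to the FOXP group of forkhead factors, which bind DNA through a winged-helix domain, mostly as repressors, and act in the development of lung, gut and other tissues. An siRNA is loaded into an Argonaute protein and guides cleavage of the matching mRNA. The sets of genes that filled the ends of this comparison are textbook ones. Many immediate early genes encode transcription factors that ERK, stress kinases and serum response factor switch on without new protein synthesis. DUSP, Sprouty and related feedback genes then damp the same kinases.

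FOXP4 (ENSG00000137166.14, GRCh38 chr6:41546426-41602384, plus strand) measured 93.9 TPM with the scrambled siRNA and 36.7 TPM with siRNA2. That left 39.0% of the control level, a log2 fold of -1.33, resting on an estimated 2707 and 1040 reads. The siRNA1 library held 51.6 TPM. In bulk RNA, fewer cells with a transcript and less of it per cell cannot be told apart. In the control FOXP4 ranked 2032 among 20494 genes with a value above 0. Its relative FOXP1 measured 33.4 TPM and 31.6 TPM, and YAP1, the Hippo pathway effector that the series names beside FOXP4, measured 152 TPM and 176 TPM.

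Marker levels were set beside the cell labels. Of the gastric epithelial markers, EPCAM measured 1136 TPM and 813 TPM, KRT8 1733 TPM and 1930 TPM, and KRT19 1343 TPM and 1616 TPM. The summed level of all 8 was 4686 TPM and 4858 TPM, most of it from these genes. Markers with a small part in the sum differed more: CDX2 measured 161 TPM and 19.0 TPM, and CEACAM5 16.6 TPM and 43.6 TPM. ERBB2, for whose amplification the line is known, measured 89.8 TPM and 63.9 TPM. It ranked 2136 among 20494 genes above 0 in the control, and GRB7, a neighbour in the amplicon, ranked 3259. Neither rank singled these genes out as amplified, and the identity of the line was not tested. E-cadherin (CDH1) was low, at 4.16 TPM and 11.6 TPM, and ranked 11210 in the control. Most markers that define other cells were near the floor. The squamous markers KRT5, KRT14, TP63, IVL and DSG3 were each under 1 TPM in both libraries, with KRT5, TP63 and IVL at 0 in both. The immune marker PTPRC measured 0.0254 TPM and 0.0516 TPM, and CD14 was at 0 in both libraries. The 2 neuroendocrine markers with values (CHGA and SYP) summed to 0.163 TPM and 0.372 TPM. The fibroblast and endothelial markers COL1A1, DCN, PDGFRB and VWF summed to 13.9 TPM and 22.6 TPM, nearly all of it COL1A1. PDGFRA, a growth factor receptor that a longer list of fibroblast and endothelial markers holds, was not near the floor, at 84.8 TPM and 65.6 TPM.

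With siRNA2, 686 genes (6.46% of those compared) measured at least 2-fold higher, and 1231 (11.6%) were at least 2-fold lower. At 4-fold the order turned, with 200 genes (1.88%) higher and 143 (1.35%) lower. At 8-fold there were 77 higher and 24 lower genes. The high side was therefore the smaller group with the longer reach. Genes at least 2-fold higher took 4.46% of all TPM in the control and 18.6% with siRNA2, and genes at least 2-fold lower took 14.6% and 4.92%. The median log2 fold over all genes was -0.23, with quartiles of -0.64 and 0.18, and 59.8% of genes lay within 1.5-fold. Scaling the libraries to a median ratio of 1 moved that median to -0.00 and turned the split of 2-fold genes from 35.8% higher and 64.2% lower to 56.4% higher and 43.6% lower. The balance of higher and lower genes thus depended on the scaling. List medians are read below against the -0.23 of all genes. Shares of list members past 2-fold are read against the 6.46% higher and 11.6% lower of all genes.

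**Figure D1:**
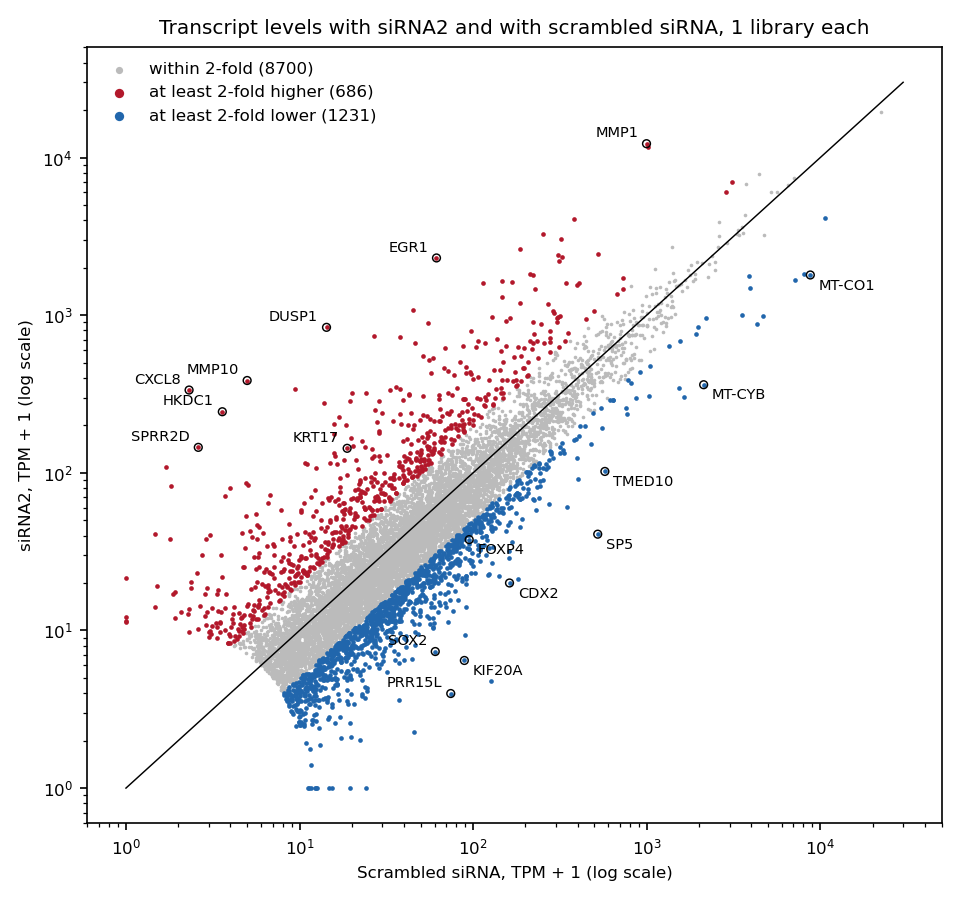
Levels of 10617 genes with the scrambled siRNA (x axis) and with siRNA2 (y axis), each point 1 gene, as TPM + 1 on log axes, with the line of equal level. Red points are the 686 genes past 2-fold above the control and blue points the 1231 genes past 2-fold below it; CXCL8, MMP10 and HKDC1 are the 3 highest protein-coding genes by log2 fold, and PRR15L, KIF20A and SP5 lie among the lowest.

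CXCL8, the neutrophil chemokine interleukin-8, stood farthest above the control among protein-coding genes. The gene (ENSG00000169429.10, chr4:73740506-73743716, plus strand) measured 1.31 TPM with the scrambled siRNA and 334 TPM with siRNA2, a log2 fold of 7.18. Its control value rested on an estimated 13.9 reads. MMP10, a secreted metalloproteinase, measured 3.99 TPM and 384 TPM (log2 fold 6.27). HKDC1, a hexokinase domain protein, followed with 2.59 TPM and 243 TPM (log2 fold 6.09). These 3 genes were all but silent in the control and reached the level of common transcripts with siRNA2.

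SERPINB2, the plasminogen activator inhibitor PAI-2, measured 0.696 TPM and 108 TPM. Its control value rested on 8.9 estimated reads. SPRR2D, a small proline-rich protein of the cornified envelope, measured 1.61 TPM and 144 TPM (log2 fold 5.80), with 7.9 estimated reads in the control. SPRR2D has close paralogs, so the split of reads among them is uncertain. ARL14, a small GTPase gene, measured 0.821 TPM and 81.9 TPM on 5.0 estimated control reads.

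Among genes with a firmer base in the control, DUSP1, a phosphatase of stress-activated MAP kinases, measured 13.3 TPM and 836 TPM (log2 fold 5.88). EGR1 measured 60.5 TPM and 2305 TPM (log2 fold 5.23), and HBEGF, a membrane-anchored ligand of the EGF receptor, 26.0 TPM and 736 TPM (log2 fold 4.77). These rested on 125.0 or more estimated reads in the control. PTPRH, a receptor-type tyrosine phosphatase, measured 8.41 TPM and 339 TPM (log2 fold 5.17), and SEMA7A, a membrane-anchored semaphorin, 2.71 TPM and 70.7 TPM (log2 fold 4.27). EGR2, MAFF and FOSB were also among the 15 highest protein-coding genes.

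Among the lowest protein-coding genes, PRR15L measured 73.3 TPM and 2.98 TPM (log2 fold -4.22), and KIF20A, a kinesin of cytokinesis, 88.0 TPM and 5.45 TPM (log2 fold -3.79). SP5, a zinc finger target of Wnt signalling, measured 521 TPM and 39.8 TPM (log2 fold -3.68). The low end joined a mitotic motor with a Wnt target, and epithelial lineage factors followed.

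SOX2, a foregut and stomach transcription factor, measured 59.5 TPM and 6.35 TPM, and CDX2, the intestinal homeobox factor, 161 TPM and 19.0 TPM. Their log2 folds were -3.04 and -3.02. GPX2, the glutathione peroxidase of the gastrointestinal epithelium, measured 181 TPM and 20.3 TPM (log2 fold -3.10). TMEM97, a membrane protein of sterol transport, measured 89.1 TPM and 8.39 TPM (log2 fold -3.26), and DTX4, a Deltex ubiquitin ligase, 90.4 TPM and 13.0 TPM (log2 fold -2.71). All of these were well measured in the control. The hyaluronan receptor HMMR measured 70.2 TPM and 10.3 TPM, MYCN 15.0 TPM and 1.58 TPM, and CDKN2C, an inhibitor of CDK4 and CDK6, 16.1 TPM and 1.82 TPM, while C4orf46, COPZ1 and ASB13 were also among the 15 lowest.

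**Figure D2:**
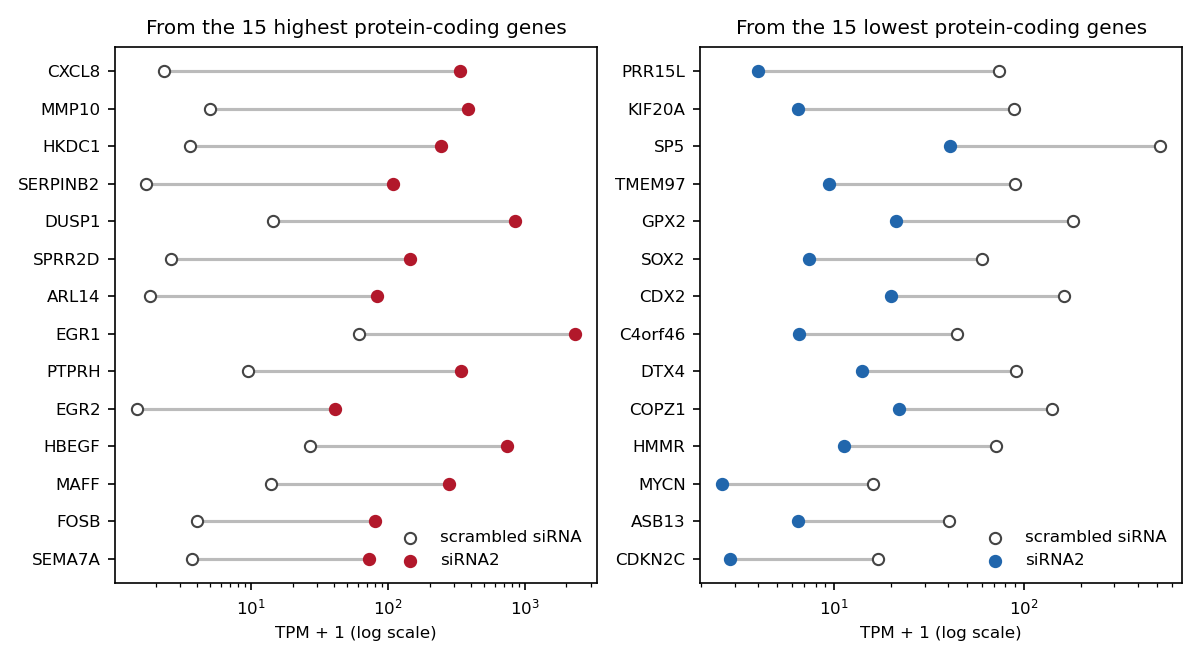
Genes named in the text from the 15 highest (left) and the 15 lowest (right) protein-coding genes by log2 fold, with TPM + 1 on a log axis; open points are the scrambled siRNA library and filled points the siRNA2 library, 1 library each. CXCL8 spans 1.31 TPM to 334 TPM, and KIF20A spans 88.0 TPM down to 5.45 TPM.

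Promoters of 6 genes from both ends are printed because each holds a searched motif: the AP-1 motif, the CArG box, the cyclic AMP response element or the CCAAT box common in promoters of mitotic genes. They were chosen after values and motifs had been seen, and a match is a description of the letters only. Each window runs from 200 bases before to 20 bases after the RefSeq start on GRCh38.p14, 5′ to 3′ on the gene's strand, with the motif in capitals. CXCL8 (chr4:73740369-73740588, plus strand) and MMP10 (chr11:102780609-102780828, minus strand) hold the AP-1 motif TGANTCA, with its first base 137 and 67 bases before the start. EGR1 (chr5:138465279-138465498, plus strand) holds a pair of CArG boxes, the element bound by serum response factor, at 105 and 83 bases before the start. DUSP1 (chr5:172771176-172771395, minus strand) holds the cyclic AMP response element TGACGTCA at 125. KIF20A (chr5:138178912-138179131, plus strand) and the spindle gene NUSAP1 (chr15:41332681-41332900, plus strand) each hold CCAAT boxes, written ATTGG where they lie on the opposite strand, at 94 and 67 and at 105 and 64 bases before the start.
CXCL8: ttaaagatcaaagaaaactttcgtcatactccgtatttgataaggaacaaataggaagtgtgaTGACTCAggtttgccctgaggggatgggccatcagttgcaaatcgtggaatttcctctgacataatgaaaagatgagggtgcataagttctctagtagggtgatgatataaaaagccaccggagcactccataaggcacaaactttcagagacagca
MMP10: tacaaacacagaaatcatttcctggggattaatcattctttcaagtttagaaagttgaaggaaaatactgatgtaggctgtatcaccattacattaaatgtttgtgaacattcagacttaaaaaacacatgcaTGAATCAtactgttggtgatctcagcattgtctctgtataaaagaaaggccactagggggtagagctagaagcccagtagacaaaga
EGR1: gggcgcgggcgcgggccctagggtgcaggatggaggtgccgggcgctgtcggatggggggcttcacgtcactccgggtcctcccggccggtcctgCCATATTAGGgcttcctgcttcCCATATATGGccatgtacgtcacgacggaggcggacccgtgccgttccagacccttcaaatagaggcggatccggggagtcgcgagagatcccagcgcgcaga
DUSP1: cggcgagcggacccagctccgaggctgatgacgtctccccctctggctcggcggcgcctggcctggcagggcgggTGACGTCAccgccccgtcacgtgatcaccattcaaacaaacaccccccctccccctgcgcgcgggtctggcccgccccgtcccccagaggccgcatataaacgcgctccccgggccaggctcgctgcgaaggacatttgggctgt
KIF20A: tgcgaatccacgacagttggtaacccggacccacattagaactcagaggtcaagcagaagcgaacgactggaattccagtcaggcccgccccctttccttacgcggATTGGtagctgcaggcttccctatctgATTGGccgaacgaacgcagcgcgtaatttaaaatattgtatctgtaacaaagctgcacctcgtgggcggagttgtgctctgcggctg
NUSAP1: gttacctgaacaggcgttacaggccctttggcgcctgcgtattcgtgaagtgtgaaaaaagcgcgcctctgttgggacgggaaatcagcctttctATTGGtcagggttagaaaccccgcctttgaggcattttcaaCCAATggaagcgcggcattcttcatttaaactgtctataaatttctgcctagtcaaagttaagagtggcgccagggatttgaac

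Over all promoter windows of 300 bases in the RefSeq table, 250 before and 50 after the start, motifs were counted on both strands. AP-1 TGANTCA stood in 12.0% of 740 windows of genes at least 2-fold higher. For genes at least 2-fold lower it stood in 3.20% of 1219 windows. It stood in 5.15% of 11864 windows of all genes compared and in 7.71% of all 35116 windows of the table. The windows of higher, lower and all compared genes belong to 480, 870 and 8182 genes. A gene can thus count more than once, and genes without a window are left out. CArG boxes stood in 2.97% and 0.902% of windows of higher and lower genes, and in 1.14% of those of all genes compared. In the 199 windows of genes at least 4-fold higher the AP-1 share was 15.6% and the CArG share 1.51%, the latter near that of all genes. In the 116 windows of genes at least 4-fold lower the AP-1 share was 6.03%, near that of all genes, and the CArG share 0%. The low AP-1 share of genes at least 2-fold lower was thus not seen at 4-fold. Forkhead TGTTTAC differed little at 2-fold, with 2.70% and 2.63% against 2.64%, and so did TEAD GGAATG, with 11.8% and 10.5% against 11.4%. For genes at least 4-fold higher and lower the forkhead shares were 3.52% and 3.45%, and the TEAD shares 14.6% and 12.9%. CRE TGACGTCA, which shares its end letters with the AP-1 motif but neither contains nor is contained in it, stood in 2.57% and 2.13% against 3.03%. CCAAT stood in 31.4% of windows of higher genes and 41.8% of lower genes, against 34.9% of all genes compared. Among the windows of G2/M and mitosis genes the CCAAT share was 72.2% of 54. It was 54.9% of 51 for G1/S and DNA replication genes and 70.0% of 10 for matrix proteases and inhibitors. Median GC content of the windows was 66.0% for higher genes, 64.7% for lower genes and 65.0% for all compared.

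The immediate early list stood highest of the gene lists. It holds mostly transcription factors, but MCL1, ZFP36, IER3 and BTG1, also counted as higher, are not. Of 34 listed genes 30 reached the limit of 5 TPM, and 24 of these (80.0%) were at least 2-fold higher. The median log2 fold was 2.77 beside -0.23 for all genes. Among AP-1 subunits, FOSL1 measured 54.3 TPM and 893 TPM, JUN 146 TPM and 1635 TPM, and FOSB 2.98 TPM and 78.8 TPM. JUND measured 303 TPM and 558 TPM. The Kruppel-like factors KLF6 and KLF4 measured 113 TPM and 1588 TPM, and 54.7 TPM and 522 TPM. CSRNP1 measured 18.6 TPM and 285 TPM.

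Not every immediate early gene was higher. BTG2, an antiproliferative gene, measured 165 TPM and 59.6 TPM, a log2 fold of -1.45. The RNA-binding proteins ZFP36 and ZFP36L2, which speed the decay of AU-rich mRNAs, stood apart, with 166 TPM and 1619 TPM for ZFP36 and 133 TPM and 69.1 TPM for ZFP36L2. MYC measured 254 TPM and 197 TPM (log2 fold -0.37). IER5 measured 100 TPM and 118 TPM.

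The feedback arm of the MAP kinases held 21 compared genes with a median log2 fold of 1.90, 12 (57.1%) at least 2-fold higher. TRIB1, a pseudokinase, measured 37.1 TPM and 725 TPM. ERRFI1, an inhibitor of the EGF receptor, measured 251 TPM and 3268 TPM, and SPRY4, a Sprouty inhibitor of receptor signalling, 50.6 TPM and 553 TPM. Members of a family differed: SPRY1 measured 36.1 TPM and 14.2 TPM, and DUSP7 23.0 TPM and 15.3 TPM. The ERK-induced ETS factors ETV4 and ETV5 hardly differed, at 70.2 TPM and 76.2 TPM and at 102 TPM in both libraries.

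The list of EGF receptor ligands and receptors held 9 compared genes with a median log2 fold of 0.72. At least 2-fold higher were 4 of them (44.4%): EGFR, HBEGF, ADAM17 and ERRFI1. ERRFI1 is neither a ligand nor a receptor and is also counted in the feedback list above. EGFR measured 35.0 TPM and 351 TPM, and ADAM17, the protease that sheds its ligands, 33.9 TPM and 79.4 TPM. The ligand genes TGFA (24.0 TPM and 28.9 TPM) and BTC (13.8 TPM and 13.9 TPM) lay near their control levels, unlike HBEGF. EPHA2, an ephrin receptor tyrosine kinase, measured 321 TPM and 3028 TPM, a log2 fold of 3.23.

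**Figure D3:**
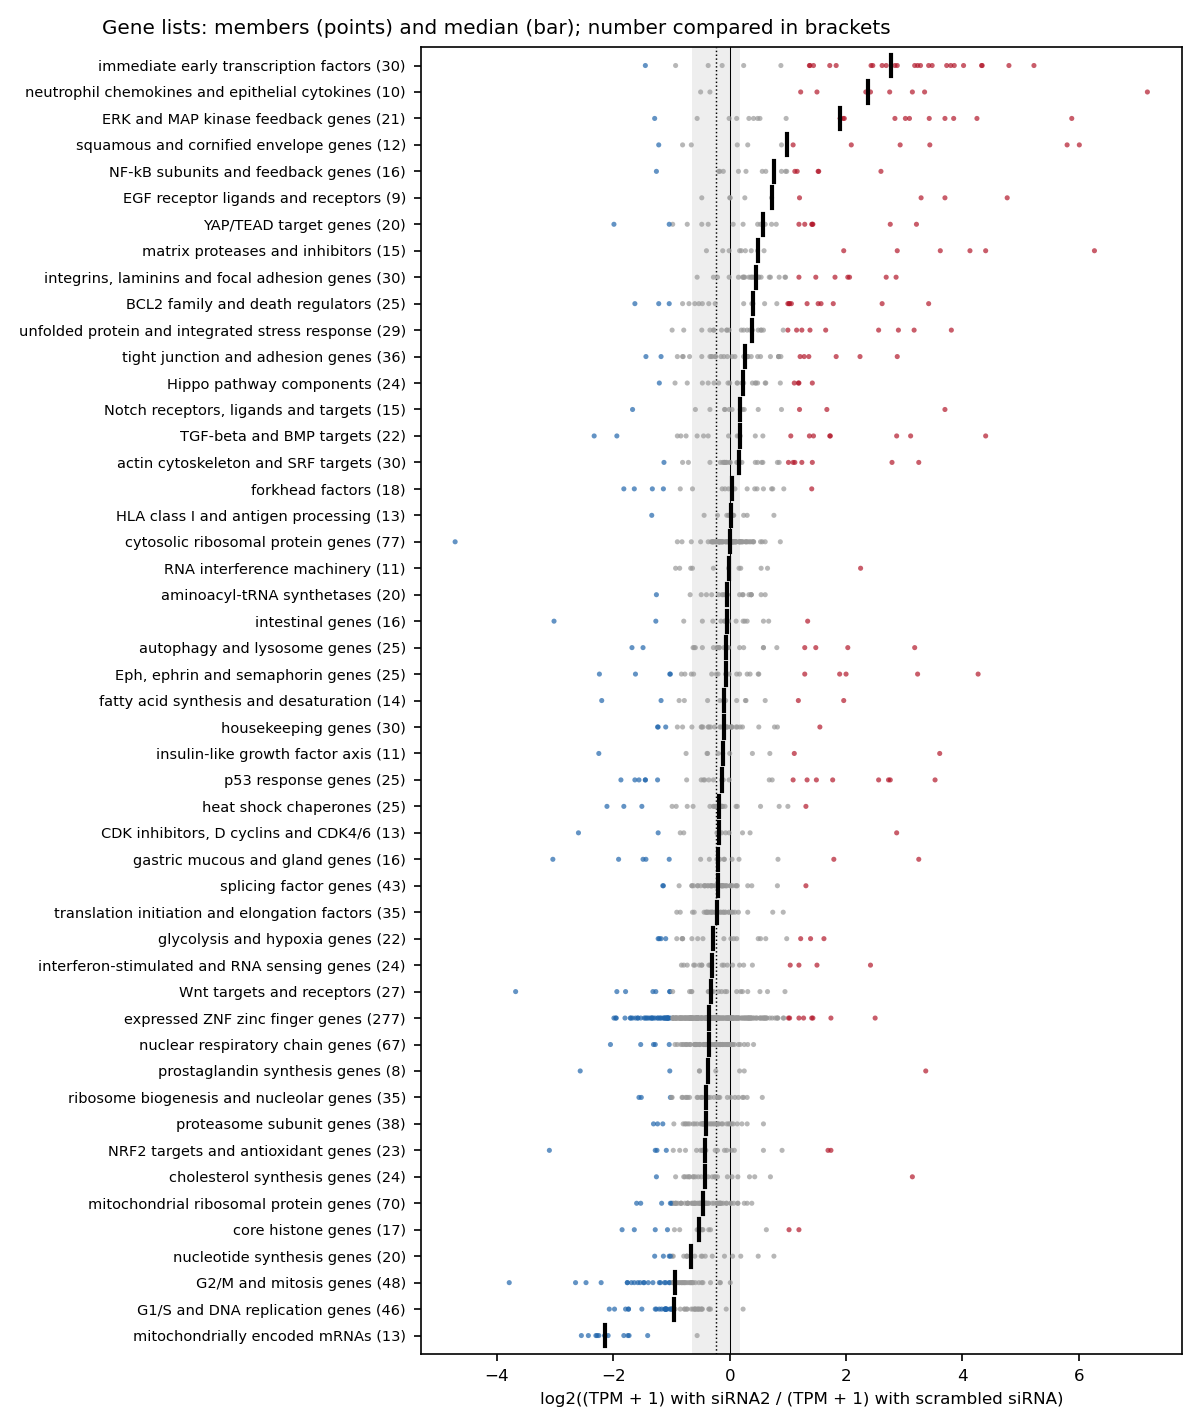
Log2 folds of siRNA2 over the scrambled siRNA for 49 gene lists with at least 5 compared genes, sorted by median; each point is 1 gene, red past 2-fold above, blue past 2-fold below, grey between, and black bars are medians. The dotted line is the median of all genes (-0.23) and the shaded band their quartiles (-0.64 and 0.18). Immediate early genes (2.77) stand at the top and mitochondrially encoded mRNAs (-2.14) at the bottom, and medians from -0.22 to 0.04 change sign with the scaling of the libraries.

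Chemokine and cytokine genes of epithelia were mostly silent. Of 25 listed genes 10 reached 5 TPM, and 5 of the 8 that were at least 2-fold higher reached that limit only through their level with siRNA2. LIF, a cytokine of the interleukin-6 family, measured 32.0 TPM and 334 TPM. The chemokines CXCL2, CXCL3 and CXCL1 measured 3.68 TPM and 40.3 TPM, 4.69 TPM and 37.2 TPM, and 4.75 TPM and 28.1 TPM. These 3 genes are close in sequence, and reads may be shared among them. IL18 measured 94.0 TPM and 220 TPM, whereas CXCL16 (220 TPM and 174 TPM) and CSF1 (20.2 TPM and 13.9 TPM) were not higher.

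Among NF-kB subunits and feedback genes, the median log2 fold was 0.76 over 16 compared genes, with 5 (31.2%) at least 2-fold higher. TNFAIP3, the deubiquitinase A20, measured 9.63 TPM and 63.7 TPM, and the subunit gene RELB 16.7 TPM and 50.1 TPM. NFKBIA, the inhibitor that NF-kB itself induces, measured 58.6 TPM and 65.0 TPM. PTGS2, which makes prostaglandin precursors, measured 10 TPM and 113 TPM, and HPGD, which degrades prostaglandins, 21.8 TPM and 2.85 TPM. The prostaglandin list as a whole had a median of -0.38 over 8 compared genes, with 1 at least 2-fold higher and 2 lower. The synthase gene PTGES2 was low as well, at 106 TPM and 51.1 TPM.

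Squamous and cornified envelope genes had 12 of 41 listed genes over the limit, with 6 at least 2-fold higher and 1 lower. Of the 6 higher genes, 2 (SPRR2D and SERPINB2) measured under 5 TPM in the control and were compared only through their level with siRNA2. KRT17, a keratin of hair follicles and wounded skin (ENSG00000128422.16, chr17:41619441-41624842, minus strand), measured 17.8 TPM and 142 TPM, a log2 fold of 2.93, and has pseudogene copies that may take part of its reads. S100A2, a calcium-binding protein of squamous epithelium, measured 9.76 TPM and 115 TPM. SFN, the epithelial 14-3-3 protein, measured 495 TPM and 1055 TPM. The envelope genes CNFN (29.6 TPM and 12.2 TPM) and PI3 (47.9 TPM and 26.9 TPM) lay below the control. The 6 defining squamous markers summed to 2.74 TPM and 0.656 TPM, so the genes named here stood without the basal keratins and TP63. KRT80 measured 27.8 TPM and 177 TPM, while the simple keratins KRT8 and KRT19 differed by less than 1.5-fold and KRT18 measured 202 TPM and 361 TPM.

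Genes that remodel the matrix, and genes that hold cells to it, had medians above 0 as deposited and under both rescalings. Matrix proteases and their inhibitors had a median log2 fold of 0.48 over 15 compared genes, with 6 (40.0%) at least 2-fold higher. Of these 6, 4 measured under 5 TPM in the control. The collagenase MMP1 measured 996 TPM and 12237 TPM, a level that FTL alone exceeded with siRNA2, and MMP3 measured 3.94 TPM and 85.7 TPM. The tissue inhibitors TIMP1 (728 TPM and 880 TPM) and TIMP2 (107 TPM and 121 TPM), and the membrane protease gene MMP14 (397 TPM and 455 TPM), stayed near the control.

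Integrins, laminins and focal adhesion genes had a median log2 fold of 0.46 over 30 genes, with 7 (23.3%) at least 2-fold higher and 0 lower. PLEC, which encodes the linker plectin, measured 86.7 TPM and 634 TPM (log2 fold 2.86). The collagen receptor subunit ITGA2 measured 185 TPM and 1199 TPM, and ZYX, the focal adhesion protein zyxin, 153 TPM and 640 TPM. LAMB3 (180 TPM and 631 TPM) and ITGB4 (216 TPM and 606 TPM), ligand and receptor of the hemidesmosome, lay on the same side. LAMA5 measured 94.9 TPM and 94.6 TPM, and FERMT1 119 TPM and 80.7 TPM.

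Actin and serum response factor target genes had a median of 0.16, closer to all genes. ANXA1 measured 15.5 TPM and 113 TPM, ACTG1 2849 TPM and 6070 TPM, and ACTB, a common reference gene, 4452 TPM and 7861 TPM. S100A10, the partner of annexin A2, measured 3886 TPM and 1772 TPM. Tight junction and adhesion genes had a median of 0.27 over 36 compared genes, 6 (16.7%) at least 2-fold higher and 2 (5.56%) lower. PARD6B, a polarity protein, measured 38.4 TPM and 289 TPM, and CLDN1 89.8 TPM and 429 TPM, whereas the stomach claudin CLDN18 measured 10.9 TPM and 3.39 TPM.

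Among unfolded protein and integrated stress response genes, 9 of 29 compared (31.0%) were at least 2-fold higher and 0 lower. The median log2 fold was 0.39. PPP1R15A, which restarts translation by dephosphorylating eIF2 alpha, measured 185 TPM and 2611 TPM, and DDIT3, the factor CHOP, 58.1 TPM and 531 TPM. The sensor kinase gene ERN1 measured 6.77 TPM and 57.0 TPM. Most folding helpers of the endoplasmic reticulum named here lay within 1.5-fold of the control: HSPA5 measured 1127 TPM and 1386 TPM, HSP90B1 1440 TPM and 1652 TPM, PDIA6 546 TPM and 544 TPM, and CALR 1890 TPM and 1828 TPM. MANF measured 120 TPM and 59.8 TPM, and EDEM1, which marks misfolded proteins for degradation, 39.0 TPM and 88.1 TPM.

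Of 25 compared heat shock chaperone genes, 3 (12.0%) were at least 2-fold lower and 1 was at least 2-fold higher. The lower share was near the 11.6% of all genes. Of the low genes, DNAJA1 measured 272 TPM and 62.5 TPM, HSPA1B 58.3 TPM and 15.8 TPM, and the constitutive HSPA8 548 TPM and 192 TPM. The higher gene, HSPB8, measured 20.5 TPM and 52.1 TPM. DNAJB1 measured 159 TPM and 318 TPM, and HSPA9 549 TPM and 993 TPM. HSPA1B is nearly identical to HSPA1A, so its reads are uncertain. Among autophagy and lysosome genes, the cargo receptor SQSTM1 measured 220 TPM and 898 TPM and MAP1LC3B, the LC3 protein of autophagosomes, 67.5 TPM and 620 TPM. The lysosomal membrane gene LAMP1 measured 394 TPM and 123 TPM. The medians of the chaperone list (-0.19) and the autophagy list (-0.06) changed sign under median-of-ratios scaling, to 0.04 and 0.16.

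Death and survival genes were found on both sides. Of 25 compared BCL2 family and death regulators, 10 (40.0%) were at least 2-fold higher and 3 (12.0%) lower. Among all genes these shares were 6.46% and 11.6%, so the lower share was near that of all genes. MCL1, a short-lived survival protein gene, measured 381 TPM and 4097 TPM, and PMAIP1, which encodes its antagonist NOXA, 33.6 TPM and 212 TPM. The death receptor gene TNFRSF10B measured 131 TPM and 450 TPM. BMF, another BH3-only gene, measured 20.8 TPM and 6.06 TPM.

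Genes of the p53 response also diverged. GDF15, a stress-induced secreted factor, measured 1012 TPM and 11713 TPM, and GADD45A 66.9 TPM and 458 TPM. CDKN1A, the p21 gene most closely tied to p53, measured 325 TPM and 323 TPM, and MDM2 48.0 TPM and 34.8 TPM. DDB2 measured 48.2 TPM and 12.5 TPM, and SESN1 27.1 TPM and 9.27 TPM, while SESN2 measured 163 TPM and 963 TPM. The list held 8 genes (32.0%) at least 2-fold higher and 6 (24.0%) lower. Its median of -0.14 changed sign to 0.10 under median-of-ratios scaling.

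Cell division genes lay below the control as a group. Of 46 compared genes of G1/S and DNA replication, 20 (43.5%) were at least 2-fold lower and 0 higher. The median log2 fold was -0.96. MCM5, a subunit of the replicative helicase, measured 62.5 TPM and 14.1 TPM, and POLD1, the catalytic subunit of DNA polymerase delta, 109 TPM and 31.8 TPM. FEN1, the flap endonuclease of lagging strand synthesis, measured 115 TPM and 33.7 TPM. CDC6, a licensing factor, measured 64.0 TPM and 75.3 TPM, CDC25A 35.3 TPM and 33.7 TPM, and E2F1 73.3 TPM and 57.3 TPM. The quartiles of the list were -1.11 and -0.57, so most members were low by a similar amount.

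G2/M and mitosis genes had the same count, with 20 of 48 (41.7%) at least 2-fold lower and 0 higher. Their median was -0.94, with a longer tail. After KIF20A and HMMR came the spindle protein gene NUSAP1, at 159 TPM and 27.8 TPM, and INCENP of the chromosomal passenger complex, at 68.1 TPM and 13.9 TPM. The kinase PLK1 measured 93.5 TPM and 26.9 TPM, AURKA 220 TPM and 67.7 TPM, and FOXM1, a forkhead factor that drives mitotic genes, 89.3 TPM and 28.0 TPM. CDC25B (259 TPM and 261 TPM), KIF23 (48.0 TPM and 42.9 TPM) and ECT2 (168 TPM and 150 TPM) measured within 1.5-fold of the control. KIF23 and ECT2 act in cytokinesis, as KIF20A does.

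CDK inhibitors lay on both sides. CDKN2B, the p15 gene, measured 19.2 TPM and 147 TPM, its family member CDKN2C 16.1 TPM and 1.82 TPM, and CDKN1B 251 TPM and 238 TPM. Nucleotide synthesis genes had a median log2 fold of -0.66 over 20 compared genes, 4 of them at least 2-fold lower, among them SHMT1 at 26.8 TPM and 10.4 TPM. Histone genes had a median of -0.53 over 17 genes. The linker histone gene H1F0 measured 3080 TPM and 7022 TPM, and the variant gene H2AFX 474 TPM and 152 TPM. Most replication-dependent histone mRNAs lack a poly(A) tail, so the capture on oligo-dT misses them.

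Mitochondrially encoded mRNAs were the lowest list, with a median log2 fold of -2.14 and 12 of 13 at least 2-fold lower. MT-CO1, which encodes the core subunit of complex IV, measured 8757 TPM and 1797 TPM, MT-CYB of complex III 2127 TPM and 361 TPM, and MT-ND4 of complex I 4322 TPM and 874 TPM. MT-ND3 differed least, at 4710 TPM and 3203 TPM. Together the 13 mRNAs took 5.15% of all TPM in the control and 1.41% with siRNA2, and the siRNA1 library lay on the other side, at 8.05%. Leaving mitochondrially encoded genes out and rescaling moved the median of all genes from -0.23 to -0.30.

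The nuclear-encoded part of the same machinery was much closer to all genes. Nuclear respiratory chain genes had a median log2 fold of -0.36 over 67 compared genes, with 5 (7.46%) at least 2-fold lower beside 11.6% of all genes. UQCR10 of complex III measured 186 TPM and 44.0 TPM. Mitochondrial ribosomal protein genes had a median of -0.46 over 70 genes, with 5 (7.14%) at least 2-fold lower. MRPL34 measured 105 TPM and 33.9 TPM, and MRPL15 170 TPM and 221 TPM. Cytosolic ribosomal protein genes had a median of 0.00 over 77 genes, which was 0.24 under median-of-ratios scaling and -0.06 without mitochondrial genes. RPS27L had a log2 fold of -0.90 and RPL37 of 0.87.

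The cholesterol synthesis list had a median log2 fold of -0.43, with SQLE at 98.7 TPM and 63.4 TPM and HMGCS1 at 76.7 TPM and 125 TPM. ACSS2, which makes acetyl-CoA from acetate, measured 90.2 TPM and 18.8 TPM. Glycolysis and hypoxia genes had a median log2 fold of -0.28 over 22 compared genes, near the -0.23 of all genes. Of these 22, 3 (13.6%) were at least 2-fold higher and 4 (18.2%) lower. GAPDH measured 1981 TPM and 842 TPM and ENO1 1554 TPM and 686 TPM, while HK2 measured 100 TPM and 234 TPM and VEGFA 53.2 TPM and 166 TPM. Among antioxidant genes HMOX1 measured 75.6 TPM and 30.5 TPM, and SLC7A11, the cystine transporter gene, 71.7 TPM and 234 TPM. Of 30 housekeeping genes 3 were at least 2-fold lower, GAPDH, GPI and VCP.

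Lineage and developmental genes held several of the lowest transcription factors. GATA4 measured 137 TPM and 48.2 TPM, GATA5 48.4 TPM and 12.1 TPM, and GATA6 139 TPM and 67.2 TPM, beside the SOX2 and CDX2 values above. Some gastric products, chosen after their values had been seen, did not share that size of difference. CTSE measured 2081 TPM and 2135 TPM, and REG4 786 TPM and 740 TPM. LYZ measured 3574 TPM and 3325 TPM, and TFF1 76.0 TPM and 136 TPM. The endodermal factor HNF4A, at 69.7 TPM and 65.8 TPM, and the brush border gene VIL1, at 136 TPM and 128 TPM, were also near the control. The choice of these products fixed how they compare with the lineage factors, so no conclusion is drawn from it. The stomach claudin CLDN18 was low, at 10.9 TPM and 3.39 TPM.

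Wnt target and receptor genes had 7 of 27 compared (25.9%) at least 2-fold lower and 0 higher, with a median log2 fold of -0.32. AXIN2, a feedback inhibitor and a standard readout of the pathway, measured 239 TPM and 68.6 TPM. The stem cell receptor LGR5 measured 212 TPM and 87.3 TPM, LGR4 131 TPM and 51.7 TPM, and the receptor gene FZD2 56.1 TPM and 13.9 TPM. SOX9 (585 TPM and 839 TPM), CCND1 (541 TPM and 633 TPM) and CTNNB1, which encodes beta-catenin (421 TPM and 521 TPM), were not low.

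In the TGF-beta and BMP list, 8 of 22 compared genes (36.4%) were at least 2-fold higher and 2 (9.09%) lower. Among all genes these shares were 6.46% and 11.6%. FST, an activin antagonist, measured 1.36 TPM and 19.3 TPM, SMAD3 22.1 TPM and 74.7 TPM, and SKI, a SMAD corepressor, 87.7 TPM and 293 TPM. The BMP-responsive genes ID2 (160 TPM and 30.8 TPM) and SMAD6 (17.7 TPM and 3.86 TPM) lay far below the control. Among Notch genes, the target HEY1 measured 1.91 TPM and 36.9 TPM and NRARP 141 TPM and 450 TPM, while HES1, another target, measured 272 TPM and 180 TPM.

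YAP/TEAD target genes had a median log2 fold of 0.57 over 20 compared genes, with 7 at least 2-fold higher and 2 lower. F3, the coagulation starter tissue factor, measured 26.2 TPM and 250 TPM. CYR61 measured 33.5 TPM and 90.6 TPM, CTGF 64.2 TPM and 106 TPM, and ANKRD1 183 TPM and 318 TPM. NUAK2, an AMPK-related kinase, measured 29.9 TPM and 6.78 TPM. The Hippo components had a median of 0.23 over 24 genes, and LATS2, a kinase that restrains YAP1, measured 14.5 TPM and 34.4 TPM.

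Among 18 compared forkhead genes, FOXO3 measured 45.9 TPM and 124 TPM and was the 1 gene at least 2-fold higher. FOXP4, FOXM1, FOXC1 (638 TPM and 288 TPM) and FOXD2 (9.04 TPM and 1.85 TPM) were at least 2-fold lower, 22.2% of the list. The list's median of 0.04 changed sign to -0.08 without mitochondrial genes. The ZNF zinc finger genes, mostly repressors, had a median of -0.36 over 277 compared genes, with 38 at least 2-fold lower and 8 higher. The 38 are 13.7% of the list, near the 11.6% of all genes. ZNF672 measured 108 TPM and 26.4 TPM, and ZNF217 78.2 TPM and 190 TPM.

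Genes that sense or act on small RNAs bear on an siRNA experiment. AGO2, the slicing Argonaute, measured 25.1 TPM and 123 TPM, a log2 fold of 2.25, whereas AGO1 measured 14.6 TPM and 8.84 TPM and DICER1 29.4 TPM and 46.6 TPM. Interferon-stimulated and RNA sensing genes had a median log2 fold of -0.31 over 24 compared genes, with 4 (16.7%) at least 2-fold higher and 0 lower. Of these 4, 3 measured under 5 TPM in the control and were compared only through their level with siRNA2. ISG20, an exonuclease gene, measured 2.37 TPM and 17.1 TPM, the interferon gene IFNL1 2.48 TPM and 8.81 TPM, and the interferon regulatory factor gene IRF1 4.79 TPM and 10.9 TPM. The RNA sensor IFIH1 measured 34.4 TPM and 22.0 TPM, and the effectors ISG15 598 TPM and 428 TPM and IFIT1 24.2 TPM and 13.6 TPM.

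Among membrane traffic genes, looked at after the values of COPZ1 and TMED10 had been seen, COPZ1 and TMED10 were at least 2-fold lower and the other compared genes of the coat and the TMED family were within 2-fold. COPZ1, the zeta subunit of the COPI vesicle coat, measured 140 TPM and 21.1 TPM (log2 fold -2.67). TMED10, a cargo receptor of the same vesicles, measured 573 TPM and 101 TPM (log2 fold -2.50). Of the coat subunits, ARCN1 measured 210 TPM and 238 TPM, COPB1 154 TPM and 211 TPM, COPG1 156 TPM and 142 TPM, and COPA 284 TPM and 194 TPM. Of the other receptors, TMED9 measured 364 TPM and 422 TPM, TMED2 312 TPM and 267 TPM, TMED7 109 TPM and 60.8 TPM, and TMED4 79.8 TPM and 41.5 TPM. In the siRNA1 library COPZ1 measured 117 TPM and TMED10 568 TPM.

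Several genes far from the control with siRNA2, picked after their values had been seen, measured within 1.5-fold of it with siRNA1. Both siRNAs are set against the same scrambled library, so their folds share its error, and the difference between siRNAs has no replicate. KRT17 measured 13.3 TPM with siRNA1, PLEC 74.9 TPM and KRT80 25.1 TPM, next to 142 TPM, 634 TPM and 177 TPM with siRNA2. SPRR2D and PTPRH lay farther from the control with siRNA1, at 3.95 TPM and 16.6 TPM beside 1.61 TPM and 8.41 TPM. On the low side, TMEM97 measured 82.7 TPM with siRNA1, HMMR 81.5 TPM, ACSS2 95.6 TPM and HPGD 19.3 TPM. Each of these low genes measured between 2.85 TPM and 18.8 TPM with siRNA2. Other genes at the high end lay far above the control with siRNA1 too. CXCL8 measured 159 TPM with siRNA1 beside 1.31 TPM in the control, and EGR1 1455 TPM beside 60.5 TPM. With siRNA1 the immediate early list had a median log2 fold of 1.72 and the MAP kinase feedback list 1.04, beside 0.01 for all genes.

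**Figure D4:**
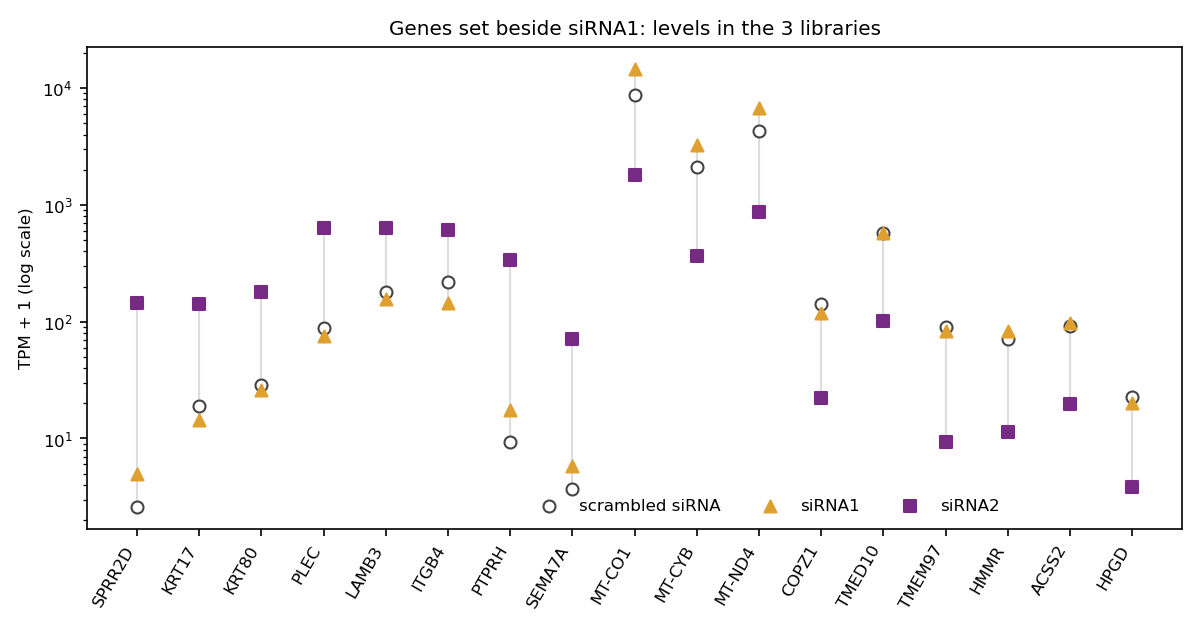
TPM + 1 on a log axis for a set of genes in the scrambled siRNA library (open circles), the siRNA1 library (triangles) and the siRNA2 library (squares), 1 library each. These genes were picked after their values had been seen. From SPRR2D to SEMA7A the siRNA2 square lies above both others, and from MT-CO1 to HPGD it lies below both; KRT17, at 17.8 TPM, 13.3 TPM and 142 TPM, is an example.

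The size of a fold also moved with properties of the transcript. Genes were sorted into 10 bins of equal size by each property. In the bin with the shortest exon length the median log2 fold was -0.32, with 17.0% at least 2-fold lower and 7.46% higher. In the bin with the longest exons, 10294 to 44677 bases, it was 0.06, with 2.94% lower and 10.2% higher. Over bins of mean level, the median ran from -0.34 in the lowest to -0.05 in the highest, where 13.7% of genes were at least 2-fold higher. Over bins of GC content it ran from -0.11 to -0.31. The part of exon length, level and GC content in the list medians above was not tested.

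**Figure D5:**
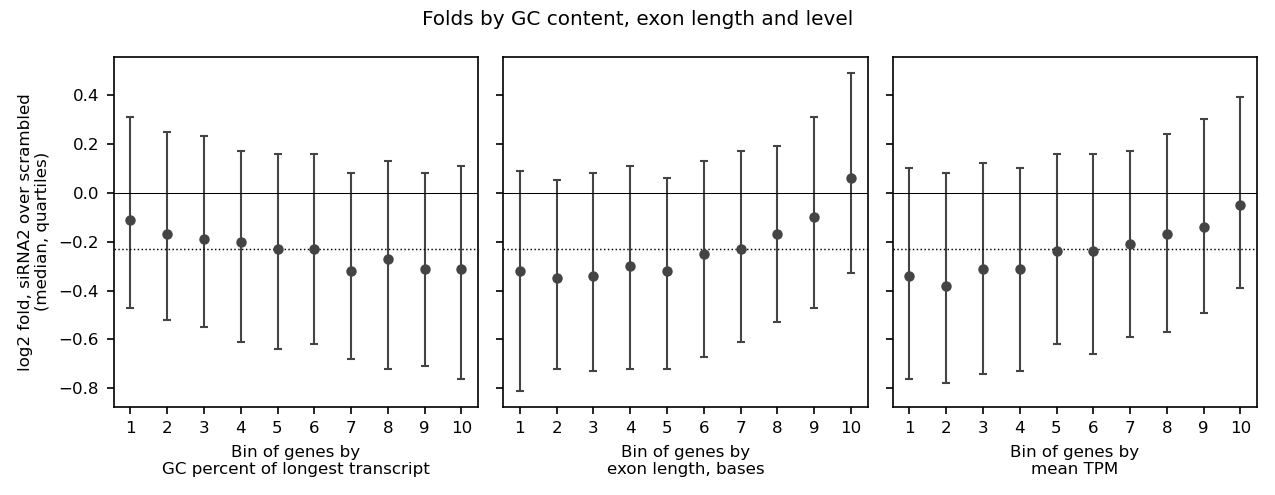
Median log2 fold of siRNA2 over the scrambled siRNA, with quartiles as bars, in 10 bins of genes by GC content of the longest transcript (left), total exon length (middle) and mean TPM (right). The solid line is 0 and the dotted line the median of all genes (-0.23); the median by exon length goes from -0.32 in the shortest bin to 0.06 in the longest.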

How the data were processed

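Poly(A) RNA of the 3 transfected NCI-N87 libraries was made into NEBNext libraries and sequenced on an Illumina NovaSeq, per the labels' protocols. The authors deposited 1 table of TPM by gene symbol, on GRCh38 per the submitters' processing notes; no source used here names the aligner, the quantifier or the annotation. TPM adds up to a fixed total, so a gain in abundant transcripts lowers all others. The table holds 31907 rows. Of these, 7683 were 0 in every library, 26 had names turned into dates by a spreadsheet, and 4 rows with shared names were left out.

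Folds were computed as log2((TPM + 1)/(TPM + 1)) over genes averaging 5 TPM or more in the scrambled and siRNA2 libraries, with pandas 2.3.3 and numpy 2.4.6. Genes past 2-fold and 4-fold were counted by size alone. Gene types, exon lengths and positions came from GENCODE 29, matched by symbol or RefSeq synonym for 96.0% of genes compared, and promoters from RefSeq on GRCh38.p14. Depth was estimated from low values: 93.2% and 93.4% of those under 2 TPM and at most 10 reads were at most 0.1 reads from a whole number, where chance gives 20%. The depth and fold code was tested on simulated data.

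Named genes were FOXP4, CXCL8, KRT17, SPRR2D and YAP1, the 15 highest and 15 lowest protein-coding genes, the 3 highest and 3 lowest of other types, and up to 6 members of each of 54 lists with the largest folds plus up to 2 on the other side. Further members are named to show genes near the control, and, like the COPI and TMED genes, were chosen after their values were seen. The members and lists were chosen with earlier results of these data known. Alternatives were a pseudocount of 0.1 or 5 TPM, a mean of at least 1 or 10 TPM or no filter, mitochondrially encoded genes left out, median-of-ratios scaling, protein-coding genes alone, and removal of the trend with GC content by lowess (statsmodels 0.14.6). Some genes that the naming rule selects are not reported here.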

Additional observations from a re-analysis of the deposited data

Results flagged for a closer look

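For 1 list and 7 genes, the siRNA2 and siRNA1 libraries lay on opposite sides of the scrambled library by more than 1.5-fold. Each side is 1 library and both share the control, so these differences were not tested. The 13 mitochondrially encoded mRNAs had a median log2 fold of -2.14 with siRNA2 and 0.71 with siRNA1. HIST1H2BD, a histone gene, had log2 folds of -1.85 with siRNA2 and 0.79 with siRNA1. PPL, which encodes the desmosome and envelope linker periplakin, had 1.36 and -0.90. FOXQ1, a forkhead factor, had 0.93 and -1.11, and H1FX, a linker histone gene, 0.63 and -0.96. COL1A1, a fibrillar collagen gene, had 0.72 and -0.93. ATP6V1A, a subunit of the vacuolar proton pump, had -0.63 with siRNA2 and 0.60 with siRNA1, and IFIH1, a sensor of double-stranded RNA, -0.62 and 0.62.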

How the results depend on the processing

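Of the counts and the FOXP4 fold, 36 values under 9 alternatives stayed within 1.5 times of the main value, and 9 moved by more. FOXP4 kept its log2 fold of -1.33 within that range under all 9 alternatives. Genes at least 2-fold higher numbered 1271 with no filter on low values, in place of 686. Genes at least 2-fold lower, 1231 in the main comparison, numbered 764 with a pseudocount of 5 TPM, 1934 with the limit lowered to 1 TPM, 2270 with no filter and 757 with median-of-ratios scaling. Genes at least 4-fold lower, 143 in the main comparison, numbered 45, 252, 252 and 89 under the same alternatives. Looser filters admit more genes and a larger pseudocount shrinks low folds by construction. For gene folds, 53 of the values under alternatives moved by over 1.5-fold and 4023 did not. No gene fold past 2-fold changed sign. Among folds nearer 0, those of 30 genes changed sign under at least 1 alternative: 26 between -0.23 and -0.01 became positive with median-of-ratios scaling, 4 between 0.01 and 0.04 became negative without mitochondrially encoded genes, and 5 between -0.05 and 0.01 changed sign when the GC trend was removed. The chemokine list median of 2.38 was 1.61 with a pseudocount of 5 TPM and 1.22 with no filter, and the squamous list median of 0.99 was 0.32 with no filter. No paired analysis was possible because each group holds 1 library. No library could be left out for the same reason. Genes with fewer than about 10 reads in the control, such as SPRR2D, SERPINB2, EGR2 and ARL14, have folds set by few reads.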

Other observations

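Transcripts of other types filled part of both ends. LINC00659, an RNA that GENCODE 29 types as antisense, measured 44.1 TPM with the scrambled siRNA and 1083 TPM with siRNA2, a log2 fold of 4.59, and without strand its reads cannot be told from those of an overlapping gene. TRAV41, a T cell receptor segment, measured 44.9 TPM and 1.28 TPM. MIR3131 and RNU7-20P were listed at 0 with the scrambled siRNA and at 10.3 TPM and 10.4 TPM with siRNA2, which came to 3.0 estimated reads each. MIR4263 and MIR4326 measured 23.0 TPM and 14.4 TPM in the control, on 8.9 and 4.0 estimated reads, and were listed at 0 with siRNA2. These short features reach 5 TPM on a few reads.

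Guidance and growth factor genes held further values at the ends. SEMA3F, a secreted semaphorin, measured 34.0 TPM and 6.39 TPM, and SEMA4B 38.5 TPM and 157 TPM. EFNA4, an ephrin ligand gene, measured 81.4 TPM and 25.8 TPM. IGFBP1, a binding protein of insulin-like growth factors, was listed at 0 with the scrambled siRNA and measured 11.2 TPM with siRNA2. IGFBP5 measured 45.1 TPM and 8.71 TPM. ANXA10, an annexin of the stomach lining, measured 0.469 TPM and 13.0 TPM, the control value on 4.0 estimated reads.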
